A study of Mus musculus with 30 samples.

Results

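The livers of mice that had received MCD together with the anti-ACBP/DBI mAb (anti-DBI) were compared with those of healthy chow-fed mice that had received the control antibody. The MCD anti-DBI livers (n = 10) and the RCD IgG livers (n = 5) make up 15 of the 30 livers that were sequenced, and only these 15 entered the fit, across all genes. The comparison asks which mRNAs differed from healthy liver after 2 weeks of anti-DBI. All mice were male C57BL/6, 8 weeks old at the start, and were kept on their diet for 6 weeks. MCD anti-DBI mice ate a diet that lacks methionine and choline and were injected with anti-DBI (5 µg/g body weight, i.p., 2 times per week) during the last 2 weeks. RCD IgG mice ate a regular chow diet (RCD) and were injected with an isotype IgG on the same schedule. The other livers came from MCD mice given IgG (n = 10) and from RCD mice given anti-DBI (n = 5), and they are used here only for values set side by side. The pair of groups thus differed in both the diet and the antibody, and the part of either in a difference cannot be told apart from these 15 livers alone. No group received MCD with methionine and choline added back, so that the deficiency cannot be told apart from other differences between the diets. No liver was sequenced at the start of the antibody, so that a change that had stayed and one that came later cannot be told apart either.

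Methionine feeds the methyl donor S-adenosylmethionine, and choline is the head group of phosphatidylcholine, the lipid that coats the lipoproteins in which the liver exports triglycerides. Without both, triglycerides stay in hepatocytes and a steatohepatitis develops that resembles MASH, although mice on this diet lose weight and do not become insulin resistant as patients do. ACBP/DBI, the product of the gene Dbi, binds medium- and long-chain acyl-CoA esters inside cells, and it is also released from cells and acts outside them as an inhibitor of autophagy. The antibody binds and neutralizes the released protein.

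Levels are counts per 1e+06 counts after TMM scaling (CPM). For the MCD anti-DBI group the lowest, the median and the highest of the 10 livers are given, and for the RCD IgG group the 5 livers in the order of their numbers. The total count was between 11.1 and 21.7 M (median 18 M) in MCD anti-DBI and between 8.36 and 13.4 M (median 11.3 M) in RCD IgG, and the mean totals differed (exact permutation test, two-sided, p = 0.00133 over 3003 arrangements). When all libraries were thinned to the smallest total, 2240 genes were called higher and 2259 lower. Markers of hepatocytes dominated all 15 livers, with a summed level of 160473 to 224000 CPM in MCD anti-DBI and 136377 to 166148 CPM in RCD IgG, and all 18 genes of this list were detected in both groups. The libraries MCD anti-DBI 5 and 10 were far more alike than any other pair of 1 group. Of 9440 genes with at least 200 counts in that pair, 8 differed by over 1.5-fold, against 152 in the next closest pair. Their counts differed by more than sampling noise (chi-square of 1.82 for each degree of freedom, against 11.2 or more in every other pair of 1 group), which libraries prepared 2 times from 1 RNA can do as well. Whether they came from 2 mice is not given in the sources used here beyond their separate labels, so n = 10 counts libraries by their labels and the number of independent livers may be 9. With the pair summed to 1 library, 2372 genes were called higher and 2418 lower, and the calls of all named genes stood.

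Many genes differed between MCD anti-DBI and RCD IgG livers. Of 13912 genes tested with edgeR's quasi-likelihood test, 5084 (36.5%) had an adjusted p under 0.05. In MCD anti-DBI 2560 of them (18.4%) were higher and 2524 (18.1%) lower, and the median log2 fold change over all genes was 0.0136. Most of these differences were small. At a log2 fold change of 1 or more in size, 681 genes (4.9%) were higher and 378 (2.72%) lower, and with a limit of 1.5 there were 367 higher and 165 lower genes. For 887 genes (6.38%) every MCD anti-DBI liver lay above every RCD IgG liver, and for 1075 genes (7.73%) every one lay below, so that the groups did not overlap for 14.1% of the genes. These shares, and those called higher (18.4%) and lower (18.1%), are the background for all counts of list members given below. At the other end, the 95% interval of the fold change lay wholly within 1.5-fold of RCD IgG for 7368 genes (53%). The same fit of the MCD IgG livers against the same RCD IgG livers called 7807 of 13672 genes (57.1%), 4084 higher (29.9%) and 3723 lower (27.2%). MCD anti-DBI against MCD IgG called 5696 of 13538 genes (42.1%), 2756 higher (20.4%) and 2940 lower (21.7%). Since these comparisons share the RCD IgG or the MCD anti-DBI livers with the first, their values are only set side by side.

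**Figure D1:**
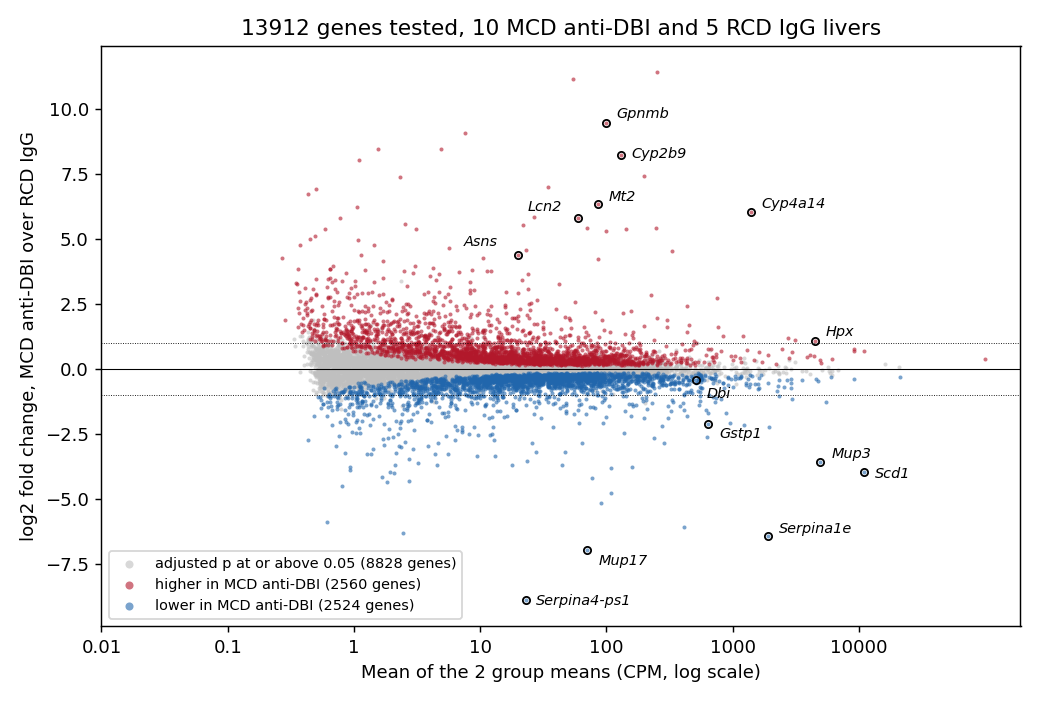
Each point is 1 of 13912 tested genes, by its mean level (CPM, log axis) and its log2 fold change, MCD anti-DBI over RCD IgG. Red points are the 2560 genes called higher, blue points the 2524 called lower and grey points the rest, dotted lines mark a log2 fold change of 1 in size, and black rings mark the genes named. The largest differences, such as 9.46 for Gpnmb and -8.88 for Serpina4-ps1, lie far outside the band that holds most genes. Fitted values above about 6.5 include genes with few or no counts in RCD IgG, for which the fitted size depends on the prior count.

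Dbi itself (chr1:120113280-120121078 on GRCm38, the build of all gene positions given here) was lower in MCD anti-DBI than in RCD IgG livers. Its level was 366, 433 and 526 CPM in MCD anti-DBI livers, against 575, 566, 611, 540 and 645 CPM in RCD IgG livers. No MCD anti-DBI liver reached the lowest RCD IgG liver, and the log2 fold change was -0.44 (standard error 0.0835, adjusted p = 0.000577). In MCD IgG livers Dbi was lower still, with 308 ± 20.2 CPM (SD, n = 10), and the difference of MCD anti-DBI from MCD IgG was 0.48 on the log2 scale (adjusted p = 6.96e-06). Of the 5 acyl-CoA binding proteins tested, Dbi was the only one called. The 4 others had 95% intervals within 1.5-fold of RCD IgG. Without MCD anti-DBI 9, Acbd3 was called higher by 0.32 (adjusted p = 0.016), and without MCD anti-DBI 8, Acbd4 was called lower by 0.30 (adjusted p = 0.0116). Acbd5, which tethers peroxisomes to the endoplasmic reticulum, had 218 to 277 CPM in MCD anti-DBI and 239 to 277 CPM in RCD IgG, and its interval ran from -0.25 to 0.044 on the log2 scale. In MCD IgG livers it averaged 152 ± 10.9 CPM (log2 fold change over RCD IgG -0.79, adjusted p = 1.13e-08).

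Several genes, some of them typical of female liver, were nearly silent in chow-fed males and abundant in MCD anti-DBI livers. Sult1e1 (chr5:87575969-87591594), which inactivates estrogens by sulfation, had 52.2, 106 and 161 CPM in MCD anti-DBI, against 2 counts in all 5 RCD IgG libraries together, so that no fold is given (adjusted p = 1.11e-10). Cyp2b9 (chr7:26173411-26210661), a P450 enzyme typical of female mice, had 173, 219 and 438 CPM in MCD anti-DBI and 0.645, 2.35, 0.571, 0.401 and 0.292 CPM in RCD IgG. Its groups were far apart (log2 fold change 8.24, adjusted p = 4.31e-10), and without RCD IgG 2, the highest of the chow livers, the value was 9.10. Between the antibodies on MCD, Cyp2b9 did not pass the test. MCD IgG livers averaged 236 ± 50.6 CPM (SD, n = 10), and MCD anti-DBI differed from them by 0.13 (adjusted p = 0.571) on the log2 scale. Sult1e1 was lower with anti-DBI than with IgG on MCD, by a log2 fold change of -0.96 (adjusted p = 2.53e-05). Cyp2b13, a close paralog of Cyp2b9, had 1.08 to 45.6 CPM in MCD anti-DBI and 1 count in all RCD IgG libraries together.

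Further genes rose strongly and with little spread. The neighbouring organic anion transporter genes Slc22a26 and Slc22a27 had 38.1 to 68.7 and 26.5 to 68.3 CPM in MCD anti-DBI, against 0.387 to 1.88 and 0.387 to 1.32 CPM in RCD IgG. Their log2 fold changes were 5.83 and 5.56, and as close paralogs they may share reads. Cyp4a31, of the family of fatty acid omega-hydroxylases, had 77.6, 118 and 233 CPM in MCD anti-DBI, against 2.58, 2.16, 5.52, 3.45 and 2.14 CPM in RCD IgG (log2 fold change 5.41). Cyp2c68, of a P450 family with many near copies, had 297 to 414 CPM in MCD anti-DBI and 143 to 157 CPM in RCD IgG (1.13). Cyp17a1, the 17 alpha-hydroxylase of steroid synthesis, reached 15.3 to 25.8 CPM, against 4.57 to 7.11 CPM in RCD IgG. Tuba8, an alpha-tubulin, Pde6c, a phosphodiesterase known from cones, and Rab11fip4, which binds Rab11, rose by 3.77, 3.73 and 2.16 on the log2 scale without overlap. Smaller but very uniform increases were found for Lect2, a chemotactic protein secreted by hepatocytes (167 to 235 CPM in MCD anti-DBI, 69.7 to 95.2 CPM in RCD IgG, log2 fold change 1.33), and for Nudt18, which hydrolyses oxidized nucleotides (26.5 to 41 and 6.84 to 9.84 CPM, 1.86). Cdkn2c, an inhibitor of the cyclin D kinases, rose in all 10 MCD anti-DBI livers as well (10.4 to 15.8 CPM, against 4.05 to 5.33 CPM in RCD IgG, log2 fold change 1.55, adjusted p = 1.56e-08). For Lect2, Cdkn2c, Slc22a26, Slc22a27 and Cyp4a31 the test of MCD anti-DBI against MCD IgG did not pass, with log2 fold changes between -0.18 and 0.15. Nudt18 was lower with anti-DBI than with IgG on MCD (-0.50, adjusted p = 0.00013).

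Genes typical of male liver were among those with the largest decrease. The major urinary proteins (Mup) carry pheromones into the urine of male mice. Mup3 (chr4:62083476-62087342) had 368, 783 and 1079 CPM in MCD anti-DBI, against 10090, 8495, 8248, 8967 and 9898 CPM in RCD IgG. Even the highest MCD anti-DBI liver stood far below the lowest RCD IgG liver (log2 fold change -3.57, standard error 0.189, adjusted p = 6.2e-10). Mup7 and Mup17 fell further, with 1.6, 11.8 and 18.2 CPM and 0.377, 0.915 and 1.94 CPM in MCD anti-DBI, against 492 to 1026 CPM and 96 to 181 CPM in RCD IgG (log2 fold changes -6.09 and -6.98). Mup11, Mup16 and Mup19 fell by 5.14, 3.69 and 6.30 on the log2 scale. The genes of this cluster on chromosome 4 are nearly identical in sequence, so that the split of reads between them is uncertain. Mup3 differed also from MCD IgG, in which it averaged 130 ± 29.4 CPM, by 2.56 on the log2 scale (adjusted p = 3.05e-09).

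Serpina4-ps1 (chr12:104080649-104086724), a serpin pseudogene, had 0, 0.0589 and 0.17 CPM in MCD anti-DBI, against 45.7, 35.2, 19.1, 78.4 and 49.6 CPM in RCD IgG, the strongest decrease among the named genes (log2 fold change -8.88, adjusted p = 1.18e-11). Serpina1e, 1 of several copies of the alpha-1-antitrypsin gene, had 6.22, 36.5 and 108 CPM in MCD anti-DBI and 2941, 2136, 5768, 4204 and 3855 CPM in RCD IgG (log2 fold change -6.43). Again no liver of one group came near the other group. Carmil1, a regulator of actin capping, had 3.77 to 8.86 CPM in MCD anti-DBI and 37.9 to 59.7 CPM in RCD IgG (log2 fold change -3.20), and it was slightly lower with anti-DBI than with IgG on MCD (-0.37, adjusted p = 0.0492). The same held for Gstp1, a glutathione S-transferase with a close paralog, which had 183 to 304 CPM in MCD anti-DBI and 661 to 1229 CPM in RCD IgG (log2 fold change -2.10, and -0.38 over MCD IgG with adjusted p = 0.00338). Ces2a, a carboxylesterase that hydrolyses acylglycerols, had 61.1 to 150 CPM in MCD anti-DBI and 414 to 475 CPM in RCD IgG, a log2 fold change of -2.18. MCD IgG livers averaged 36.2 ± 14.6 CPM (SD, n = 10), and MCD anti-DBI was higher than that by 1.44 on the log2 scale (adjusted p = 9.59e-06). Susd4, an inhibitor of complement, Lrit2, Mfsd4b1 and Atrnl1 completed the genes with the smallest p. They fell by 2.85, 3.69, 1.51 and 1.28 on the log2 scale, all without overlap.

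The dimorphism between male and female mouse liver is set by the pattern of growth hormone release, pulsatile in males and nearly continuous in females, and depends on sex steroids. All 22 tested genes of a list of male-biased liver genes were lower in MCD anti-DBI, and for all 22 the groups did not overlap. Their median log2 fold change was -2.7, within a range of -6.98 to -0.897. Srd5a1, the steroid 5 alpha-reductase, had 17.9, 21.5 and 31.6 CPM in MCD anti-DBI, against 125, 89.6, 85, 100 and 93 CPM in RCD IgG (log2 fold change -2.10, adjusted p = 6.82e-09). Hsd3b5, a male-specific ketosteroid reductase, had 0.674, 7.7 and 18.2 CPM in MCD anti-DBI and 253, 177, 190, 222 and 210 CPM in RCD IgG (-4.76). Of the female-biased genes, 14 of 17 tested were higher and none was lower (1 lower without RCD IgG 3 or MCD anti-DBI 1), and 10 had no overlap. The other 6 of the 23 listed genes did not pass the filter on low counts. Several of the 17 passed it only through the MCD anti-DBI livers, where they are high, so that their count and median only describe the list. Of the 7 members with at least 10 counts in every liver, 6 were higher. The median log2 fold change of the 17 was 2.66, and the members with 3 or fewer counts in RCD IgG all lie above it. A1bg, a secreted glycoprotein, and Sult2a3, a sulfotransferase outside the list, had no count in any RCD IgG library. Against a floor of 3 counts over that group they were at least 38-fold and at least 53-fold higher in MCD anti-DBI, with levels of 0.647 to 3.84 and 0.222 to 6.88 CPM. In MCD IgG livers the median of the male-biased list was -4.59 over RCD IgG (22 of 22 lower) and that of the female-biased list 4.99 (17 of 18 higher). The 2 female-biased medians cover different sets of tested genes, some of them nearly silent in RCD IgG, so that their difference is not read as an effect. Against MCD IgG, 18 of 21 male-biased genes were higher in MCD anti-DBI and 1 was lower (median log2 fold change 1.64). Of 17 female-biased genes tested against MCD IgG, 1 was higher and 5 were lower (median -0.0887).

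**Figure D2:**
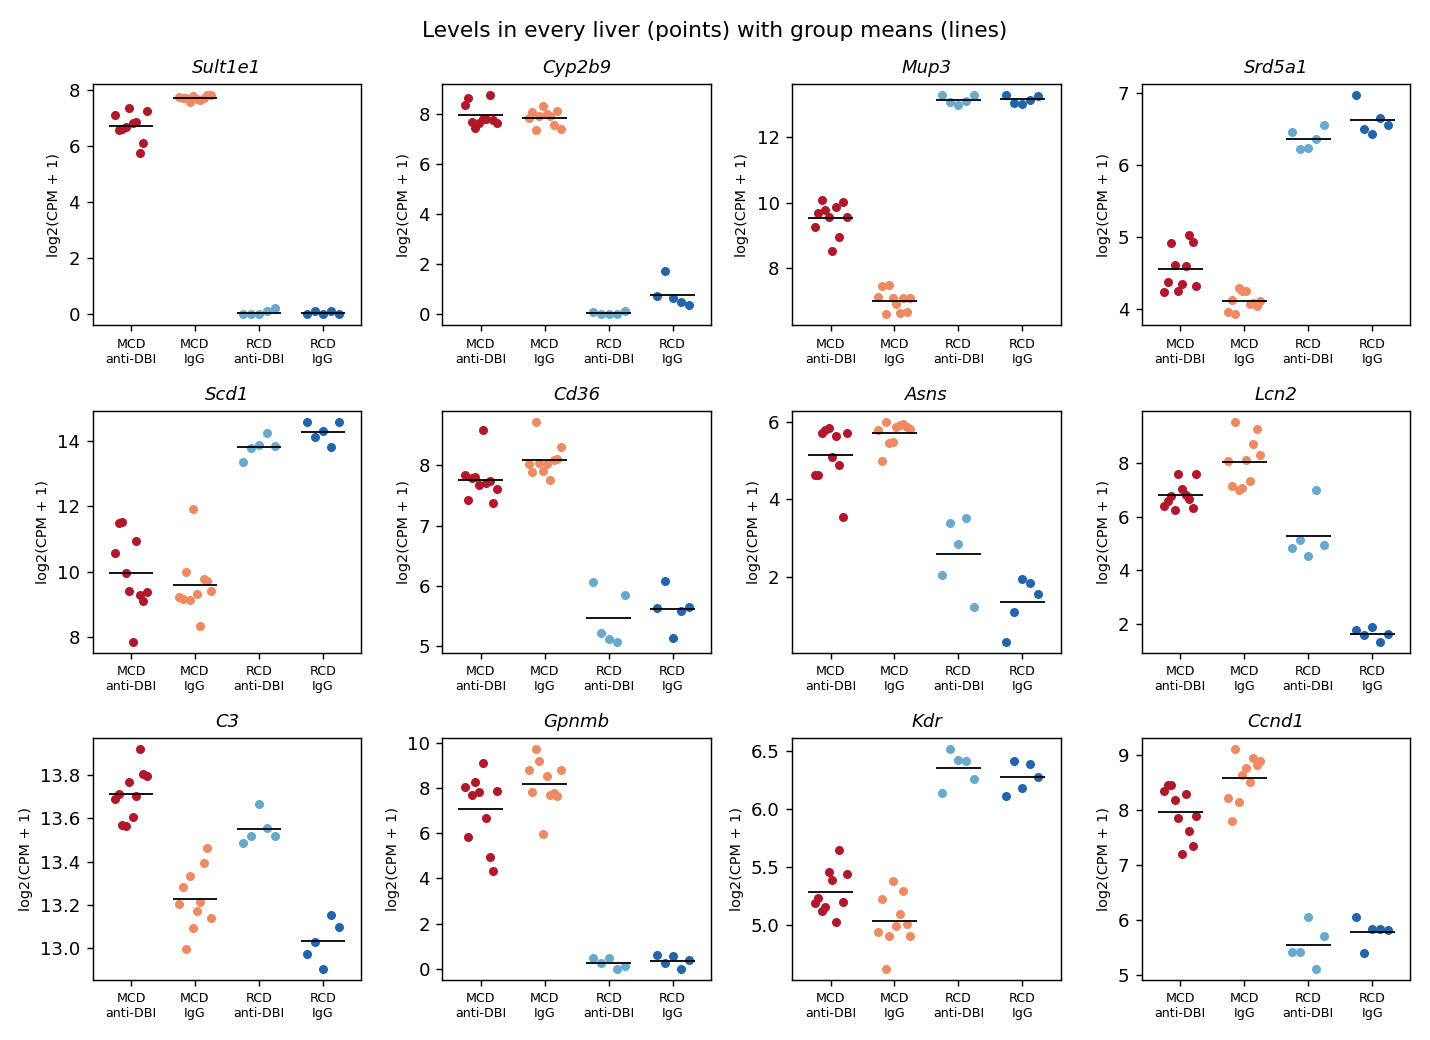
Each panel shows 1 gene as log2(CPM + 1) in every liver (points) with the group mean (line), from left to right MCD anti-DBI (n = 10), MCD IgG (n = 10), RCD anti-DBI (n = 5) and RCD IgG (n = 5). The MCD anti-DBI points lie apart from the RCD IgG points in all 12 panels, above for Sult1e1, Cyp2b9, Cd36, Asns, Lcn2, C3, Gpnmb and Ccnd1 and below for Mup3, Srd5a1, Scd1 and Kdr.

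Genes of the growth hormone axis showed no common direction. Of 17 tested, 4 were higher and 4 lower, near the shares over all genes (18.4% and 18.1%), and the median log2 fold change was 0.0012. Ghr, the growth hormone receptor, had 205, 339 and 412 CPM in MCD anti-DBI, against 647, 667, 549, 642 and 612 CPM in RCD IgG. All MCD anti-DBI livers lay below all RCD IgG livers (log2 fold change -0.93, adjusted p = 1.23e-05). Egfr, the receptor of epidermal growth factor, was lower too (86.6 to 300 CPM in MCD anti-DBI, 441 to 1017 CPM in RCD IgG, -1.80). Igfbp2, a binding protein of the insulin-like growth factors, was higher (668 to 2351 CPM in MCD anti-DBI, 288 to 447 CPM in RCD IgG, 1.62). Igfals, the acid-labile subunit that carries IGF1 in plasma, had 97.2 to 139 CPM in MCD anti-DBI and 98.8 to 122 CPM in RCD IgG, and its interval ran from -0.16 to 0.16 on the log2 scale. In MCD IgG livers Igfals averaged 68.5 ± 17.1 CPM, and MCD anti-DBI exceeded that by a log2 fold change of 0.70 (adjusted p = 4.47e-05). Socs2, a suppressor that growth hormone induces through STAT5, and Bcl6, a male-biased repressor, are described although they fell outside the rule for named genes, since their values had been seen. Socs2 had 5.75, 34.6 and 138 CPM in MCD anti-DBI, against 6.32, 4.61, 9.71, 8.58 and 9.06 CPM in RCD IgG (log2 fold change 2.67, adjusted p = 0.00169). Bcl6 had 5, 15.8 and 62.6 CPM in MCD anti-DBI, against 113, 97.2, 107, 27.7 and 83.2 CPM in RCD IgG (-1.74, adjusted p = 0.0139). The ranges of the groups overlapped for both genes, and RCD IgG 4 stood well below the other chow livers for Bcl6. Prlr, the prolactin receptor, which is female-biased in mouse liver, was higher in MCD anti-DBI than in both IgG groups. Its levels were 114, 132 and 191 CPM, against 61, 90.4, 105, 88.3 and 81.8 CPM in RCD IgG (log2 fold change 0.72, adjusted p = 0.000547). It averaged 88.9 ± 18.5 CPM in MCD IgG (0.65 for MCD anti-DBI over MCD IgG, adjusted p = 0.00015).

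Fatty acid synthesis was the metabolic list with the most uniform decrease. Of 19 tested genes 15 were lower and none was higher, 11 of them without overlap, and the median log2 fold change was -1.37. Scd1 (chr19:44394455-44407879), the stearoyl-CoA desaturase, had 229, 834 and 2942 CPM in MCD anti-DBI, against 24838, 18126, 20575, 14594 and 24880 CPM in RCD IgG. The highest MCD anti-DBI liver stood well below the lowest RCD IgG liver, and the log2 fold change was -3.98 (standard error 0.453, adjusted p = 3.76e-06). Acss2, which activates acetate, had 71.5 to 227 CPM in MCD anti-DBI and 367 to 695 CPM in RCD IgG (-1.62), and Slc25a1, the citrate carrier, 160 to 197 and 253 to 319 CPM (-0.62). Pnpla3, a lipid droplet protein whose mRNA follows lipogenesis, was near the limit of detection in MCD anti-DBI (0.164 to 0.906 CPM, against 1.44 to 7.11 CPM in RCD IgG, -2.96). The desaturase Fads1 and the elongase Elovl5 were not called, with levels of 454 to 956 and 291 to 565 CPM in MCD anti-DBI and 664 to 883 and 410 to 602 CPM in RCD IgG. Scd1 did not pass between the antibodies on MCD (0.39, adjusted p = 0.506), whereas Acss2 was higher with anti-DBI (1.04, adjusted p = 5.61e-05).

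Lipid uptake and droplet genes were mostly higher, with 11 of 21 higher, 1 lower (2 without RCD IgG 4) and a list median of 0.426, which is the median log2 fold change of its tested genes. Cd36, a transporter of fatty acids, had 165, 210 and 385 CPM in MCD anti-DBI, against 48.6, 66.4, 34.2, 46.9 and 49.3 CPM in RCD IgG (log2 fold change 2.17, adjusted p = 2.17e-07). The lowest MCD anti-DBI liver was above the highest RCD IgG liver by more than a factor of 2. Lpl, lipoprotein lipase, had 32.8 to 166 CPM in MCD anti-DBI and 12.5 to 30.8 CPM in RCD IgG (1.88), and Plin5, which links droplets to mitochondria, 39.1 to 105 and 20.8 to 32.9 CPM (1.20). Fitm1, a protein of droplet formation, was the member that fell (5.36 to 12.1 CPM in MCD anti-DBI, 19 to 41.1 CPM in RCD IgG, -1.80). Cideb and Dgat1, which act in lipoprotein assembly and in the last step of triglyceride synthesis, had intervals within 1.5-fold of RCD IgG.

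Fatty acid oxidation held 13 higher and 3 lower genes of 27 (over all genes, 18.4% were higher and 18.1% lower), with a list median of 0.352. Without RCD IgG 1, 3 or 5 the number of higher members was 7, 8 and 8. Cyp4a14, a microsomal omega-hydroxylase and target of PPAR alpha, had 928, 1657 and 7984 CPM in MCD anti-DBI, against 21.2, 102, 55.2, 14.8 and 15.3 CPM in RCD IgG. The groups were far apart and both spread widely (log2 fold change 6.04, standard error 0.78). Without RCD IgG 2 the value was 6.68. Pdk4, the kinase that shuts down pyruvate dehydrogenase, had 12.4 to 55.5 CPM in MCD anti-DBI and 1.84 to 5.46 CPM in RCD IgG (2.98), and Acot2, a mitochondrial acyl-CoA thioesterase, 9.33 to 33 and 3.05 to 6.87 CPM (2.07). Ppara itself was among the lower members (47.4 to 137 CPM in MCD anti-DBI, 121 to 232 CPM in RCD IgG, -0.76), as was the fatty acid binding protein Fabp1 (-0.66). Hadh and Cpt2, enzymes of mitochondrial beta-oxidation, were called higher by 0.26 and 0.23, a size within 1.5-fold of RCD IgG, and the calls were lost without single RCD IgG livers (adjusted p of 0.0605 for Hadh without RCD IgG 1, and between 0.0733 and 0.104 for Cpt2 without RCD IgG 1, 3 or 5). Fabp1 stood between the other groups. MCD IgG livers averaged 579 ± 149 CPM (SD, n = 10), and the log2 fold change of MCD anti-DBI over MCD IgG was 1.60 (adjusted p = 9.71e-08).

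Of 23 genes of cholesterol synthesis and uptake, 8 were higher and 2 lower in MCD anti-DBI, with a list median of 0.348. Over all genes, 18.4% were higher and 18.1% lower. The livers differed in direction. The mean difference from RCD IgG over the list, on log2(CPM + 1), ran from -0.674 in liver 6 to 0.668 in liver 7. The RCD IgG livers ran from -0.285 to 0.356. In MCD IgG over RCD IgG the same list had 2 higher and 13 lower genes and a median of -0.59, and in MCD anti-DBI over MCD IgG 21 genes were higher and none was lower. Srebf2, the transcription factor that drives the pathway, had 77.2, 95.8 and 116 CPM in MCD anti-DBI, against 57.6, 62.3, 73.2, 61 and 70.9 CPM in RCD IgG (log2 fold change 0.61, adjusted p = 4.4e-05). The groups did not overlap. Mvk, mevalonate kinase, rose by 0.99 and the sterol reductase Hsd17b7 by 0.71 (adjusted p = 0.000388 and 0.000155). Hsd17b7 differed from both IgG groups, with 72.8 to 131 CPM in MCD anti-DBI, a mean of 58.6 ± 8.72 CPM in MCD IgG and 53.4 to 72 CPM in RCD IgG, and the difference of MCD IgG from RCD IgG did not pass (-0.082, adjusted p = 0.539). Tm7sf2 and Ebp, enzymes of the late sterol steps, were the lower members (-1.19 and -0.48).

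Deprivation of an amino acid slows translation in general but favours that of the transcription factor ATF4, which induces amino acid synthesis and transport. Of 21 tested genes of an ATF4 target list, 15 were higher in MCD anti-DBI and none was lower, 7 had no overlap, and the median log2 fold change was 1.43. Of the 13 members with at least 10 counts in every liver, 7 were higher, and 1 was lower without RCD IgG 1, MCD anti-DBI 7 or MCD anti-DBI 8. Asns (chr6:7675169-7693254), asparagine synthetase, had 10.6, 40.8 and 56.6 CPM in MCD anti-DBI, against 0.258, 1.13, 2.86, 2.57 and 1.95 CPM in RCD IgG. Even MCD anti-DBI 9, the lowest of its group, lay above all RCD IgG livers (log2 fold change 4.39, standard error 0.462, adjusted p = 1.63e-06). Psat1, of serine synthesis, had 3.44 to 16.7 CPM in MCD anti-DBI and 0.516 to 1.62 CPM in RCD IgG (3.16), Trib3, a pseudokinase, 22.1 to 67 and 6.12 to 12.8 CPM (2.27), and Atf5, a related transcription factor, 403 to 940 and 178 to 267 CPM (1.70). Shmt2, of mitochondrial one-carbon metabolism, and Sesn2, an inhibitor of mTORC1, were not called, with levels of 212 to 273 and 9.71 to 15.4 CPM in MCD anti-DBI and 238 to 300 and 8.1 to 12.3 CPM in RCD IgG. Shmt2 was that member, called lower without RCD IgG 1 (-0.23, adjusted p = 0.0288), MCD anti-DBI 7 or MCD anti-DBI 8 (both -0.20). In MCD IgG over RCD IgG 19 of 23 genes were higher with a median of 2.45. Against MCD IgG, 11 genes were lower and 1 was higher in MCD anti-DBI, Psat1 among the lower (-1.18, adjusted p = 0.000596) but not Asns (-0.47, adjusted p = 0.0898).

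ATF4 binds DNA with C/EBP proteins at composite sites whose core reads TGATGCA. These letters were searched on both strands of the RefSeq promoters (GRCm38.p6, 250 bases before to 50 bases after a start site). Of 27025 genes 982 (3.63%) hold them in a promoter, and of 19 list genes with a promoter in that set 7 do. Of these 7 genes 5 were called higher, while Chac1 and Gdf15 were not called. That is close to the share of the whole list, of which 15 of 21 tested genes were called higher. Fgf21, Nupr1, Atf3 and Pycr1 are shown because they were called higher and hold the core between 103 and 138 bases before the start site. They were chosen after their values had been seen. The sequences run 5′ to 3′ along the gene's strand, and capitals mark the core or its reverse complement TGCATCA. A match is a description of the sequence and not a site shown to be bound.
Fgf21 (chr7:45615441-45615740, minus strand): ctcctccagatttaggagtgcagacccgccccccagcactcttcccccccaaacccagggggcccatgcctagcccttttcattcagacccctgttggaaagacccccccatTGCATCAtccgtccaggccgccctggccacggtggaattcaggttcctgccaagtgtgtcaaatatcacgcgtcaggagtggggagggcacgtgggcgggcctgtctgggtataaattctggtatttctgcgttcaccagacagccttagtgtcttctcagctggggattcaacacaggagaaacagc
Nupr1 (chr7:126625421-126625720, minus strand): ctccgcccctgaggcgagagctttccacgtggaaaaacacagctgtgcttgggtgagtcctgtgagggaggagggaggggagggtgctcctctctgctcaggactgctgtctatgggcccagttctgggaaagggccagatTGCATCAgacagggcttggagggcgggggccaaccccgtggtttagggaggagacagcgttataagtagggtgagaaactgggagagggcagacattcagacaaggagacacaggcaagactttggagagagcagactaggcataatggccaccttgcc
Atf3 (chr1:191183284-191183583, minus strand): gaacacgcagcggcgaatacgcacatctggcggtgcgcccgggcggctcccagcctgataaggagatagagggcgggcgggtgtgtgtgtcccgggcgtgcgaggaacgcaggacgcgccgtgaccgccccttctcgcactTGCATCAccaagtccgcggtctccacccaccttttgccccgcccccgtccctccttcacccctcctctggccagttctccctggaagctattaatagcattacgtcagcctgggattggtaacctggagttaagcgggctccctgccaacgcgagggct
Pycr1 (chr11:120643699-120643998, minus strand): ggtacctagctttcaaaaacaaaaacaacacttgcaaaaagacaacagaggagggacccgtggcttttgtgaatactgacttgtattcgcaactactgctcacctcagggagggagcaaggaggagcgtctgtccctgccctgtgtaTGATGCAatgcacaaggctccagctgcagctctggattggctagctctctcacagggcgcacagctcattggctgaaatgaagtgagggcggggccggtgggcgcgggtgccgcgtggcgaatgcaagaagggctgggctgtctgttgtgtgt

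Fgf21, a hormone that the liver releases under nutrient stress, had 3.32, 28.4 and 203 CPM in MCD anti-DBI, against 1.03, 1.13, 2.09, 0.962 and 3.8 CPM in RCD IgG. This was the widest spread among the named ATF4 targets, and the lowest MCD anti-DBI liver lay below the highest RCD IgG liver (log2 fold change 4.58, standard error 1.02, adjusted p = 0.00199). Without MCD anti-DBI 8 the value was 3.85. Nupr1, a stress-induced chromatin protein, had 1.44 to 46.3 CPM in MCD anti-DBI and 0.641 to 2 CPM in RCD IgG (4.25, adjusted p = 0.000681). Atf3, a repressor induced by stress, had 2.22 to 18 and 1.04 to 2.53 CPM (2.62), and Pycr1, the last enzyme of proline synthesis, 0.202 to 2.3 and 0.0974 to 0.571 CPM (1.99). Each of these 4 genes overlapped with RCD IgG in its lowest liver. On MCD, Nupr1, Atf3 and Pycr1 were lower with anti-DBI than with IgG, by log2 fold changes of -1.51, -1.91 and -1.24, and Fgf21 did not pass (-0.67, adjusted p = 0.371).

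Methionine and choline metabolism changed in part (over all genes, 18.4% were higher and 18.1% lower). Of 19 genes of the methionine cycle and transsulfuration 9 were higher and 7 lower. Mat2a, the methionine adenosyltransferase of nonhepatic cells, had 141, 232 and 289 CPM in MCD anti-DBI, against 108, 91.5, 89.2, 105 and 101 CPM in RCD IgG (log2 fold change 1.19, adjusted p = 1.07e-05). The groups did not overlap. Gnmt, the glycine methyltransferase that consumes S-adenosylmethionine, was lower (1076 to 1540 CPM in MCD anti-DBI, 1759 to 2228 CPM in RCD IgG, -0.58), as was Csad, of taurine synthesis (-1.89). Cth, the gamma-lyase that yields cysteine, was higher than in both IgG groups, with 418 to 690 CPM in MCD anti-DBI, a mean of 273 ± 49.9 CPM in MCD IgG and 227 to 369 CPM in RCD IgG. Its log2 fold change was 0.73 over RCD IgG and 0.92 over MCD IgG (adjusted p = 9.97e-05 and 6.5e-07). Cbs, the preceding enzyme, was not called and lay within 1.5-fold of RCD IgG (-0.02 to 0.27). Among 16 genes of choline and phosphatidylcholine metabolism 4 were higher and 7 lower. Chdh and Aldh7a1, the enzymes that oxidize choline to betaine, were lower (-0.31 and -0.79), and Pemt, which makes phosphatidylcholine by methylation, was higher by 0.28.

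The metallothioneins, small proteins that bind zinc and copper, rose with a wide spread. Mt1 had 37.1, 175 and 626 CPM in MCD anti-DBI, against 6.06, 7.25, 9.14, 6.41 and 4.29 CPM in RCD IgG (log2 fold change 5.38, standard error 0.698, adjusted p = 1.44e-05), and Mt2 13.6, 94.4 and 446 CPM, against 2.71, 2.16, 1.81, 2.08 and 1.75 CPM in RCD IgG (6.34). All MCD anti-DBI livers exceeded all RCD IgG livers although they differed among themselves by over 10-fold. Neither gene differed between the antibodies on MCD at the threshold (adjusted p = 0.305 and 0.122). In chow-fed livers with anti-DBI, Mt1 averaged 53.9 ± 25.2 CPM and Mt2 29.3 ± 17.9 CPM (SD, n = 5), and each of these livers lay above all RCD IgG livers for both genes. The part of the antibody in the difference of MCD anti-DBI from RCD IgG was not tested.

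The acute phase proteins, which hepatocytes secrete during inflammation, were mostly higher. Of 24 tested genes, 15 were higher and 2 lower, 13 without overlap, and the median log2 fold change was 0.92. Lcn2 (chr2:32384633-32388252), a siderophore-binding protein, had 76.1, 105 and 191 CPM in MCD anti-DBI, against 2.45, 1.98, 2.67, 1.52 and 2.05 CPM in RCD IgG. The lowest MCD anti-DBI liver was far above the highest RCD IgG liver (log2 fold change 5.79, standard error 0.311, adjusted p = 6.81e-10). Orm2 (97.9 to 262 CPM in MCD anti-DBI, 5.33 to 12.1 CPM in RCD IgG, 4.23), Apcs (204 to 581 and 47.1 to 62.5 CPM, 2.83) and Hpx, the scavenger of heme (5265 to 7704 and 2722 to 3159 CPM, 1.07), followed. Il6ra, a subunit of the interleukin-6 receptor, and Saa4, the constitutive serum amyloid, were lower (-0.63 and -0.54), and Stat3 and Cp were not called. Several of these mRNAs were also high with anti-DBI on chow, where livers averaged 48.1 ± 44.6 CPM of Lcn2, 61.3 ± 24.5 CPM of Orm2 and 133 ± 42.7 CPM of Apcs (SD, n = 5). Lcn2 was 128 CPM in 1 of these livers, RCD anti-DBI 4, and without it the mean was 28.2 ± 4.85 CPM (SD, n = 4). The part of the antibody was not tested for these genes either. Against RCD IgG, the MCD IgG livers had 15 higher and 3 lower genes of this list, with a median of 0.723.

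The complement genes moved mostly the other way, with 11 of 16 lower (8 without overlap) and 4 higher, and a list median of -0.53. C6, of the membrane attack complex, had 44.5, 70.4 and 89.5 CPM in MCD anti-DBI, against 288, 196, 241, 238 and 256 CPM in RCD IgG (log2 fold change -1.81, adjusted p = 2.7e-08). C8a, of the same complex, and Mbl2, a lectin that starts the cascade, were lower as well (-1.22 and -1.52). C3 (chr17:57203970-57228136), the hub of the cascade, was higher. Its level was 12096, 13377 and 15486 CPM in MCD anti-DBI, against 8040, 8363, 7677, 9124 and 8762 CPM in RCD IgG, and no livers overlapped (log2 fold change 0.68, standard error 0.0755, adjusted p = 2.78e-06). In MCD IgG, C3 averaged 9643 ± 943 CPM (SD, n = 10), and the difference of MCD anti-DBI from MCD IgG was 0.47 (adjusted p = 3.36e-05). Mbl1, a second lectin, was also above both IgG groups, with 134 to 178 CPM in MCD anti-DBI and 101 to 122 CPM in RCD IgG. Its mean in MCD IgG was 101 ± 8.42 CPM and, unlike that of C3, not above the RCD IgG livers. Both genes were also high with anti-DBI on chow, with a mean of 11993 ± 593 CPM of C3 and 171 ± 16.4 CPM of Mbl1 (SD, n = 5), and every one of these livers lay above all RCD IgG livers. The part of the antibody was not tested. Without RCD IgG 4, 2 in place of 4 complement genes were higher.

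Genes of lipid-associated macrophages, which surround dying fat-laden hepatocytes, were the list with the highest median log2 fold change, 3.06, with 9 of 11 higher, 8 without overlap and 1 lower. Of the 8 members with at least 10 counts in every liver, 6 were higher. The median includes genes that were scarce in RCD IgG and high in MCD anti-DBI, so that it only describes the list. The summed level of these markers was 154 to 1165 CPM (median 542 CPM) in MCD anti-DBI, against 65.1 to 188 CPM (median 152 CPM) in RCD IgG. In bulk liver a change in the number of such cells and a change in mRNA per cell cannot be told apart. Gpnmb (chr6:49036546-49070929), a glycoprotein of lipid-laden macrophages, had 18.8, 216 and 546 CPM in MCD anti-DBI, against 0.516, 0.188, 0.476, 0 and 0.292 CPM in RCD IgG (log2 fold change 9.46, standard error 1.11, adjusted p = 5.19e-06). Within the MCD anti-DBI group its level spanned a factor of over 20, yet all 10 livers exceeded the chow livers. Mmp12, macrophage elastase, had 10.6 to 161 CPM in MCD anti-DBI and 0.0802 to 1.43 CPM in RCD IgG (7, and 7.82 without RCD IgG 3). Trem2, a receptor for lipids and apoptotic cells, had 2.38 to 24.1 and 0.195 to 0.753 CPM (4.66), and Atp6v0d2, of the proton pump, 15.3 to 56.2 and 1.42 to 6.19 CPM (3.67). Fabp5, a fatty acid binding protein that hepatocytes express as well, was the member that fell (6.88 to 43.9 CPM in MCD anti-DBI, 21.1 to 102 CPM in RCD IgG, -1.68). On MCD, 7 of these genes were lower with anti-DBI than with IgG and none was higher.

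The resident Kupffer cells had the opposite direction. Of 9 markers 5 were lower and 1 was higher (over all genes, 18.1% were lower and 18.4% higher), with a list median of -0.706. Their summed level was 148 to 405 CPM in MCD anti-DBI and 310 to 414 CPM in RCD IgG. Clec4f, a lectin restricted to these cells, had 31.8, 59.2 and 97.4 CPM in MCD anti-DBI, against 125, 96.5, 105, 113 and 106 CPM in RCD IgG (log2 fold change -0.87, adjusted p = 0.00192). MCD anti-DBI 9 just reached the lowest chow liver and the other 9 lay below all chow livers. Cd163, a hemoglobin scavenger receptor, fell by 1.85 and Fcna, a ficolin, by 0.71 on the log2 scale. Marco, a scavenger receptor, was the member that rose (1.96, adjusted p = 0.00193). Among 21 markers of monocytes and macrophages, 14 were higher and 2 lower (median 0.733; of the 16 with at least 10 counts in every liver 9 were higher), with summed levels of 440 to 1276 CPM in MCD anti-DBI and 448 to 562 CPM in RCD IgG. Lyz2, lysozyme, had 69.3 to 299 CPM in MCD anti-DBI and 48.2 to 70.3 CPM in RCD IgG (1.41), and Ccr2, the receptor that draws monocytes into tissue, 1.66 to 4.19 and 0.471 to 2.19 CPM (1.52). Against MCD IgG, 20 of these 21 markers were lower in MCD anti-DBI and none was higher. Adgre1, which encodes F4/80, and Csf1r were lower than in both IgG groups. Adgre1 had 11.7 to 18.1 CPM in MCD anti-DBI, a mean of 21.8 ± 5.8 CPM in MCD IgG and 19.5 to 29.9 CPM in RCD IgG, and differed by -0.57 from RCD IgG and by -0.56 from MCD IgG. Csf1r (-0.51 over RCD IgG, adjusted p = 0.02) no longer passed without RCD IgG 1 (adjusted p = 0.0595).

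Neutrophil genes were at very low levels, with 4 of 13 listed markers tested and all 4 higher (the 1 marker with at least 10 counts in every liver among them). S100a8 and S100a9, the subunits of calprotectin, had 0.397 to 2.25 and 0.963 to 3.6 CPM in MCD anti-DBI, against 0 to 0.387 and 0.16 to 0.774 CPM in RCD IgG (2.41 and 2.24). B and plasma cell markers were mixed, with 4 of 8 lower and 1 higher (over all genes, 18.1% were lower and 18.4% higher). Ighm, the heavy chain of IgM, fell (4.59 to 9.57 CPM in MCD anti-DBI, 14 to 27 CPM in RCD IgG, -1.63, adjusted p = 3.09e-06). Without RCD IgG 1 or 4 or MCD anti-DBI 1, between 1 and 2 of the B cell markers were lower, and without RCD IgG 4 or 5 none was higher. Of the T and NK cell markers 7 of 18 were tested, 1 higher and 1 lower (none lower without RCD IgG 2), near the shares over all genes. The level of all these markers was low, with a sum of 7.42 to 20.2 CPM in MCD anti-DBI and 5.46 to 9.03 CPM in RCD IgG for T and NK cells.

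**Figure D3:**
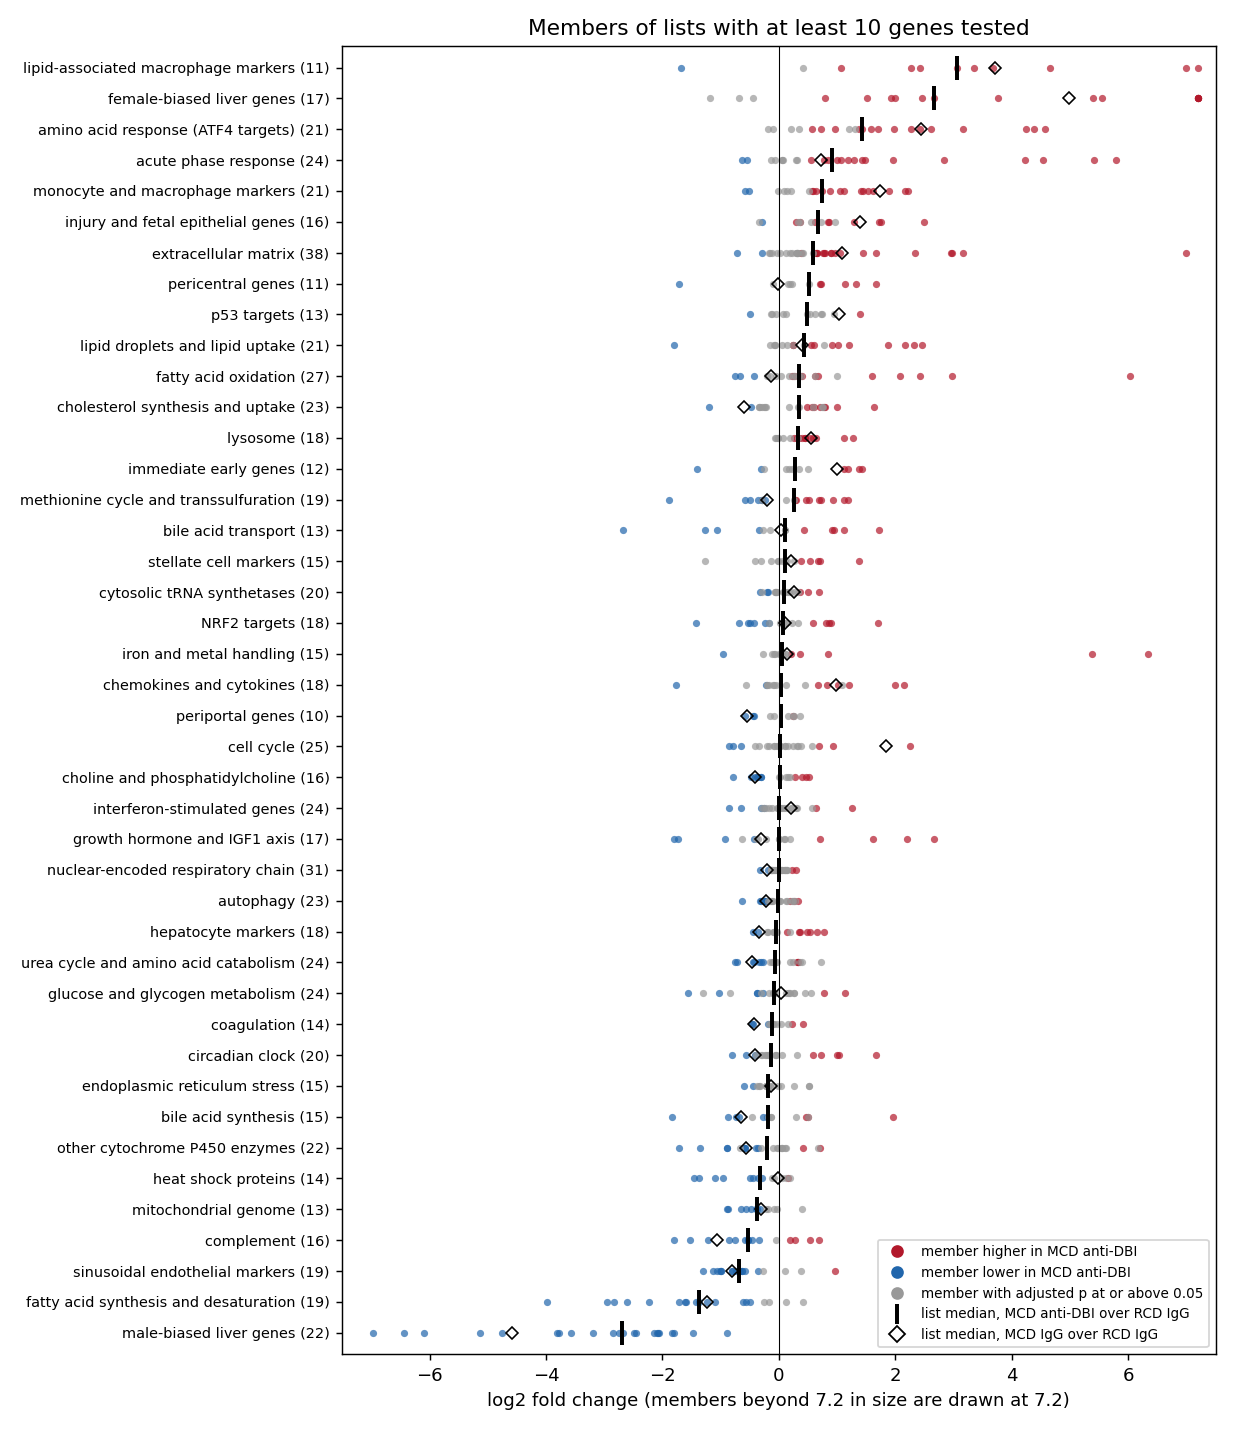
Each row is a gene list with at least 10 tested genes (number tested in brackets), ordered by its median, and each point a member, by its log2 fold change of MCD anti-DBI over RCD IgG (red higher, blue lower, grey adjusted p at or above 0.05). The black bar is the list's median and the diamond its median in MCD IgG over RCD IgG, which shares the RCD IgG livers. The male-biased list (median -2.7) is blue throughout, fatty acid synthesis has a median of -1.37, and the median of lipid-associated macrophage markers is 3.06.

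Extracellular matrix genes were higher for 20 of 38 members and lower for 2, with 9 members without overlap above RCD IgG and a list median of 0.588, whereas the median in MCD IgG over RCD IgG was 1.08 with 34 higher. Of the 29 members with at least 10 counts in every liver, 14 were higher in MCD anti-DBI than in RCD IgG. Dcn, decorin, had 181, 236 and 287 CPM in MCD anti-DBI, against 113, 147, 169, 116 and 139 CPM in RCD IgG (log2 fold change 0.77, adjusted p = 4.91e-05). Every MCD anti-DBI liver was above every chow liver. Eln, elastin, rose by 1.68 and Mmp14, a membrane-bound protease, by 0.79. Fn1, fibronectin, which hepatocytes secrete in large amounts, was not called (1894 to 2844 CPM in MCD anti-DBI, 2528 to 2997 CPM in RCD IgG). Col5a3 and Col14a1 were the lower members (-0.71 and -0.29, adjusted p = 0.0185 and 0.0274). The call of Col5a3 was lost without RCD IgG 1 (adjusted p = 0.0601) and that of Col14a1 without RCD IgG 2 or 5 (0.0775 and 0.0799). Against MCD IgG, 21 matrix genes were lower in MCD anti-DBI and 2 were higher. Stellate cell markers, from the cells that make much of this matrix, were higher for 5 of 15. Without RCD IgG 1, 4 or 5 or MCD anti-DBI 1, 4 or 5, between 2 and 3 were higher, near the share over all genes (18.4%). Summed levels of these markers were 368 to 505 CPM in MCD anti-DBI and 308 to 529 CPM in RCD IgG. Pdgfra, a growth factor receptor of these cells, had 8.57 to 17.4 CPM in MCD anti-DBI and 4.01 to 6.02 CPM in RCD IgG (1.38). Colec11 and Reln had intervals within 1.5-fold of RCD IgG.

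Markers of the sinusoidal endothelium, the fenestrated lining of the liver capillaries, were lower for 15 of 19 genes (13 without overlap) and higher for 1 (2 without RCD IgG 2), with a list median of -0.678. Their summed level was 484 to 643 CPM (median 524 CPM) in MCD anti-DBI and 857 to 925 CPM (median 888 CPM) in RCD IgG. Kdr (chr5:75932827-75978458), a VEGF receptor, had 31.7, 36.3 and 49.2 CPM in MCD anti-DBI, against 68.4, 84.2, 71.7, 82.7 and 76.5 CPM in RCD IgG (log2 fold change -1, standard error 0.0886, adjusted p = 2.41e-07). No livers overlapped. Cdh5, the cadherin of endothelial junctions, Flt4 and Oit3 fell by 1.14, 1.07 and 0.99 on the log2 scale. Rspo3, the Wnt-enhancing factor of central vein endothelium, was the member that rose (7.03 to 11.7 CPM in MCD anti-DBI, 3.74 to 5.43 CPM in RCD IgG, 0.97), and Egfl7 lay within 1.5-fold of RCD IgG. The median of the list in MCD IgG over RCD IgG was -0.81, and on MCD 5 of the genes were higher and 1 was lower with anti-DBI than with IgG. Among 11 pericentral genes, which depend on Wnt signals around the central vein, 5 were higher, and Cyp2c29, a P450 enzyme, was lower (-1.71). Over all genes, 18.4% were higher and 18.1% lower. Axin2, a direct target of Wnt, had 21.2, 24.5 and 31.6 CPM in MCD anti-DBI, against 12.1, 9.79, 13.9, 10.5 and 12.2 CPM in RCD IgG (log2 fold change 1.13, adjusted p = 7.75e-07), with no overlap, and Glul, glutamine synthetase, rose by 0.73 and Cyp2e1 by 0.70. All 3 were also higher with anti-DBI than with IgG on MCD (0.43, 0.36 and 0.34, adjusted p between 0.00187 and 0.0136).

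Of 16 genes of injured or fetal-type epithelium 9 were higher, and Clu, the chaperone clusterin, was lower (-0.28), with a median of 0.679. Of the 10 members with at least 10 counts in every liver, 7 were higher. Krt18, a keratin of hepatocytes, had 185, 231 and 255 CPM in MCD anti-DBI, against 113, 117, 126, 127 and 129 CPM in RCD IgG (log2 fold change 0.86, adjusted p = 1.61e-06). Afp, alpha-fetoprotein, rose (2.55 to 5.82 CPM in MCD anti-DBI, 0.387 to 1.43 CPM in RCD IgG, 2.50), as did Anxa2, an annexin (16.9 to 57.6 and 10.1 to 16.8 CPM, 1.72). Neither overlapped with chow livers. All 3 were lower with anti-DBI than with IgG on MCD, in which Afp averaged 19.4 ± 13.1 CPM (SD, n = 10, -2.09, adjusted p = 3.24e-06). Of 6 tested markers of bile duct cells 2 were higher and none was lower (over all genes 18.4% and 18.1%). Their median log2 fold change was 0.586. Only 1 was higher without RCD IgG 1, 2 or 4 or MCD anti-DBI 1, 2, 6, 7, 8 or 9. The 9 listed markers summed to 38.3 to 49.9 CPM in MCD anti-DBI and 26.1 to 52.6 CPM in RCD IgG. Krt19, the keratin of these cells, had 0.809 to 1.71 CPM in MCD anti-DBI and 1.16, 0.376, 14.4, 0.641 and 0.877 CPM in RCD IgG, so that 1 chow liver held nearly all of it. Its log2 fold change was -1.41 (adjusted p = 0.0706), 0.82 without RCD IgG 3 (adjusted p = 0.0359) and between -1.71 and -1.67 without RCD IgG 2, 4 or 5, each with an adjusted p under 0.05.

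The lysosome list had 11 of 18 genes higher, 7 without overlap, and none lower, with a median of 0.331. Ctsl, a cathepsin, had 965, 1144 and 1391 CPM in MCD anti-DBI, against 420, 460, 526, 478 and 544 CPM in RCD IgG (log2 fold change 1.28, adjusted p = 4.16e-08). The groups stood well apart. Lamp1 and Lamp2, the main proteins of the lysosomal membrane, had intervals of -0.13 to 0.11 and -0.13 to 0.11 on the log2 scale. Macrophages are rich in lysosomes. Of the markers above, those of lipid-associated macrophages and of monocytes and macrophages were mostly higher, and those of Kupffer cells mostly lower. The part of these cells in the lysosome result was not tested. Differences of the autophagy genes from chow were small in size. Of 23, 22 had intervals within 1.5-fold, 3 were higher and 6 lower (6 higher without MCD anti-DBI 8). The shares over all genes were 53%, 18.4% and 18.1%, so that calls were about as frequent in this list as over all genes. All 23 members had at least 10 counts in every liver, which favours narrow intervals. Ulk1, the kinase that starts autophagy, was the largest exception (92.6 to 151 CPM in MCD anti-DBI, 153 to 198 CPM in RCD IgG, log2 fold change -0.63, adjusted p = 3.82e-05), and Uvrag fell by 0.33.

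Transport and synthesis of bile acids differed in part (over all genes, 18.4% were higher and 18.1% lower). Of 13 transport genes 5 were higher and 4 lower. Slco1a1, an uptake carrier that is male-biased in mice, had 21.4, 60.7 and 113 CPM in MCD anti-DBI, against 432, 372, 453, 436 and 360 CPM in RCD IgG (log2 fold change -2.67, adjusted p = 2.51e-06). Slc10a1, the sodium-dependent uptake carrier NTCP, had 358 to 630 CPM in MCD anti-DBI and 829 to 1092 CPM in RCD IgG (-1.06). Both were clearly below chow in all livers. Abcb1a, an export pump, rose by 1.13. Among 15 synthesis genes 6 were lower and 3 higher. Cyp7b1 and Cyp27a1, of the acidic branch, had log2 fold changes of -1.83 and -0.87, and Cyp39a1, an oxysterol hydroxylase, rose by 1.95. The 4 genes that were lower than chow (Slco1a1, Slc10a1, Cyp7b1 and Cyp27a1) were higher with anti-DBI than with IgG on MCD, by 2.24, 1.10, 1.10 and 0.71.

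Of 22 other P450 genes 9 were lower and 2 higher. Over all genes, 18.1% were lower, 18.4% were higher and 53% had intervals within 1.5-fold. Cyp2c29, a drug-metabolizing enzyme with close paralogs, had 261 to 680 CPM in MCD anti-DBI and 1222 to 1491 CPM in RCD IgG (-1.71). Of 24 urea cycle and amino acid genes 7 were lower and 3 higher (1 higher without RCD IgG 2, 3 or 4 or MCD anti-DBI 2, 3, 6, 7 or 9), and 15 had intervals within 1.5-fold. Otc, ornithine transcarbamylase, had 224 to 339 CPM in MCD anti-DBI and 373 to 511 CPM in RCD IgG (-0.76), and Cps1, which starts the urea cycle, 3477 to 4745 and 4258 to 5936 CPM (-0.45). Of 24 glucose and glycogen genes 5 were lower and 2 higher (9 lower without MCD anti-DBI 8). G6pc, the phosphatase that releases glucose, fell (56.6 to 461 CPM in MCD anti-DBI, 479 to 991 CPM in RCD IgG, -1.57), as did Pygl, the liver glycogen phosphorylase (-1.03). Heat shock genes were lower for 8 of 14, with a median of -0.324. Hspa1b, a cytosolic chaperone, had 2.56, 6.05 and 9.03 CPM in MCD anti-DBI, against 10.8, 9.88, 16.5, 20.3 and 21.1 CPM in RCD IgG (log2 fold change -1.38), and Hspb1 fell by 1.09. The 13 listed genes of the mitochondrial genome had a median of -0.372, with 8 lower and none higher. All genes of that genome together, with its ribosomal and transfer RNAs, took 4.19% to 4.88% of the counts in MCD anti-DBI and 4.99% to 5.69% in RCD IgG. mt-Co3, a subunit of complex IV, had 37.3 to 52.5 CPM in MCD anti-DBI and 137, 71, 66.5, 74.4 and 71.3 CPM in RCD IgG (-0.87), so that RCD IgG 1 stood apart from the other chow livers.

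For some processes that MCD alters, most differences of MCD anti-DBI from RCD IgG were small in size. All 31 nuclear-encoded genes of the respiratory chain had intervals within 1.5-fold of RCD IgG, 2 being called higher and 2 lower (between 1 and 4 lower without RCD IgG 2 or 5 or MCD anti-DBI 9). Over all genes, 53% had such intervals, 18.4% were higher and 18.1% lower. Sdha, of complex II, had 475 to 539 CPM in MCD anti-DBI and 591 to 650 CPM in RCD IgG (-0.32), the largest change of the list, while Sdhc of the same complex had 155 to 176 and 160 to 176 CPM. In MCD IgG over RCD IgG 17 of the 31 genes were lower and none was higher, and in MCD anti-DBI over MCD IgG 17 were higher and none was lower. Of 14 coagulation genes 12 had intervals within 1.5-fold. In MCD anti-DBI 2 were higher and 3 lower (1 higher without RCD IgG 3 or 4), near the shares over all genes. In MCD IgG over RCD IgG 11 were lower and none was higher. Intervals within 1.5-fold were not counted for MCD IgG over RCD IgG in either list. F2, prothrombin, had 1767, 1953 and 2155 CPM in MCD anti-DBI, against 1872, 1918, 1910, 1922 and 1943 CPM in RCD IgG, so that the ranges lay within each other, and a mean of 1516 ± 223 CPM in MCD IgG. F7 was lower and Kng1, kininogen, higher in MCD anti-DBI than in RCD IgG (-0.47 and 0.41, adjusted p = 0.000628 and 0.000682), and Kng1 in MCD IgG did not differ from RCD IgG at the threshold (0.099, adjusted p = 0.454).

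None of the 8 genes of MHC class II presentation was called, and 6 had intervals within 1.5-fold. Over all genes, 18.4% were higher, 18.1% lower and 53% within 1.5-fold. H2-Ab1 had 22.1, 33.2 and 56.1 CPM in MCD anti-DBI, against 31, 37.5, 32.6, 34.9 and 26.9 CPM in RCD IgG, and Cd74, the invariant chain, 49.5 to 123 and 73.8 to 100 CPM. The chow livers lay inside the range of the MCD anti-DBI livers for H2-Ab1. Their log2 fold changes were 0.078 and -0.09 with intervals of -0.28 to 0.44 and -0.43 to 0.25. In MCD IgG over RCD IgG 7 of the 8 were higher with a median of 0.735, and 7 were lower with anti-DBI than with IgG on MCD. The interferon-stimulated genes had 2 higher (1 without RCD IgG 3 or 5) and 4 lower of 24, with Usp18 the most changed upward (1.26) and Bst2 downward (49.8 to 64.6 CPM in MCD anti-DBI, 93.6 to 103 CPM in RCD IgG, -0.86, adjusted p = 4.73e-08).

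Of 25 cell cycle genes 3 were higher and 3 lower (5 lower without MCD anti-DBI 6), with a list median of 0.0249. Over all genes, 18.4% were higher and 18.1% lower. The intervals were wide, since these mRNAs were scarce, and 5 lay within 1.5-fold. In MCD IgG over RCD IgG 24 of 30 were higher with a median of 1.84. Ccnd1 (chr7:144929931-144939925), cyclin D1, departed from the rest of the list. It had 146, 263 and 349 CPM in MCD anti-DBI, against 65, 41.1, 55.9, 56.4 and 55.4 CPM in RCD IgG, with the lowest MCD anti-DBI liver above the highest chow liver by more than a factor of 2 (log2 fold change 2.25, standard error 0.216, adjusted p = 6.01e-07). Mcm6, of the replicative helicase, rose by 0.94, whereas Rrm2 and Tk1, which supply deoxynucleotides, fell by 0.78 and 0.85 on the log2 scale. Pcna had 19.1 to 27.5 CPM in MCD anti-DBI and 21.4 to 24.5 CPM in RCD IgG, and Tyms 5.95 to 7.77 and 6 to 7.02 CPM. Cdkn1a, the p21 inhibitor, was higher than in chow (1.5 to 7.95 CPM in MCD anti-DBI, 0.962 to 1.93 CPM in RCD IgG, 1.40, adjusted p = 0.0106), although it averaged 17.7 ± 7.01 CPM in MCD IgG and MCD anti-DBI was lower by 2.32 on the log2 scale.

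**Figure D4:**
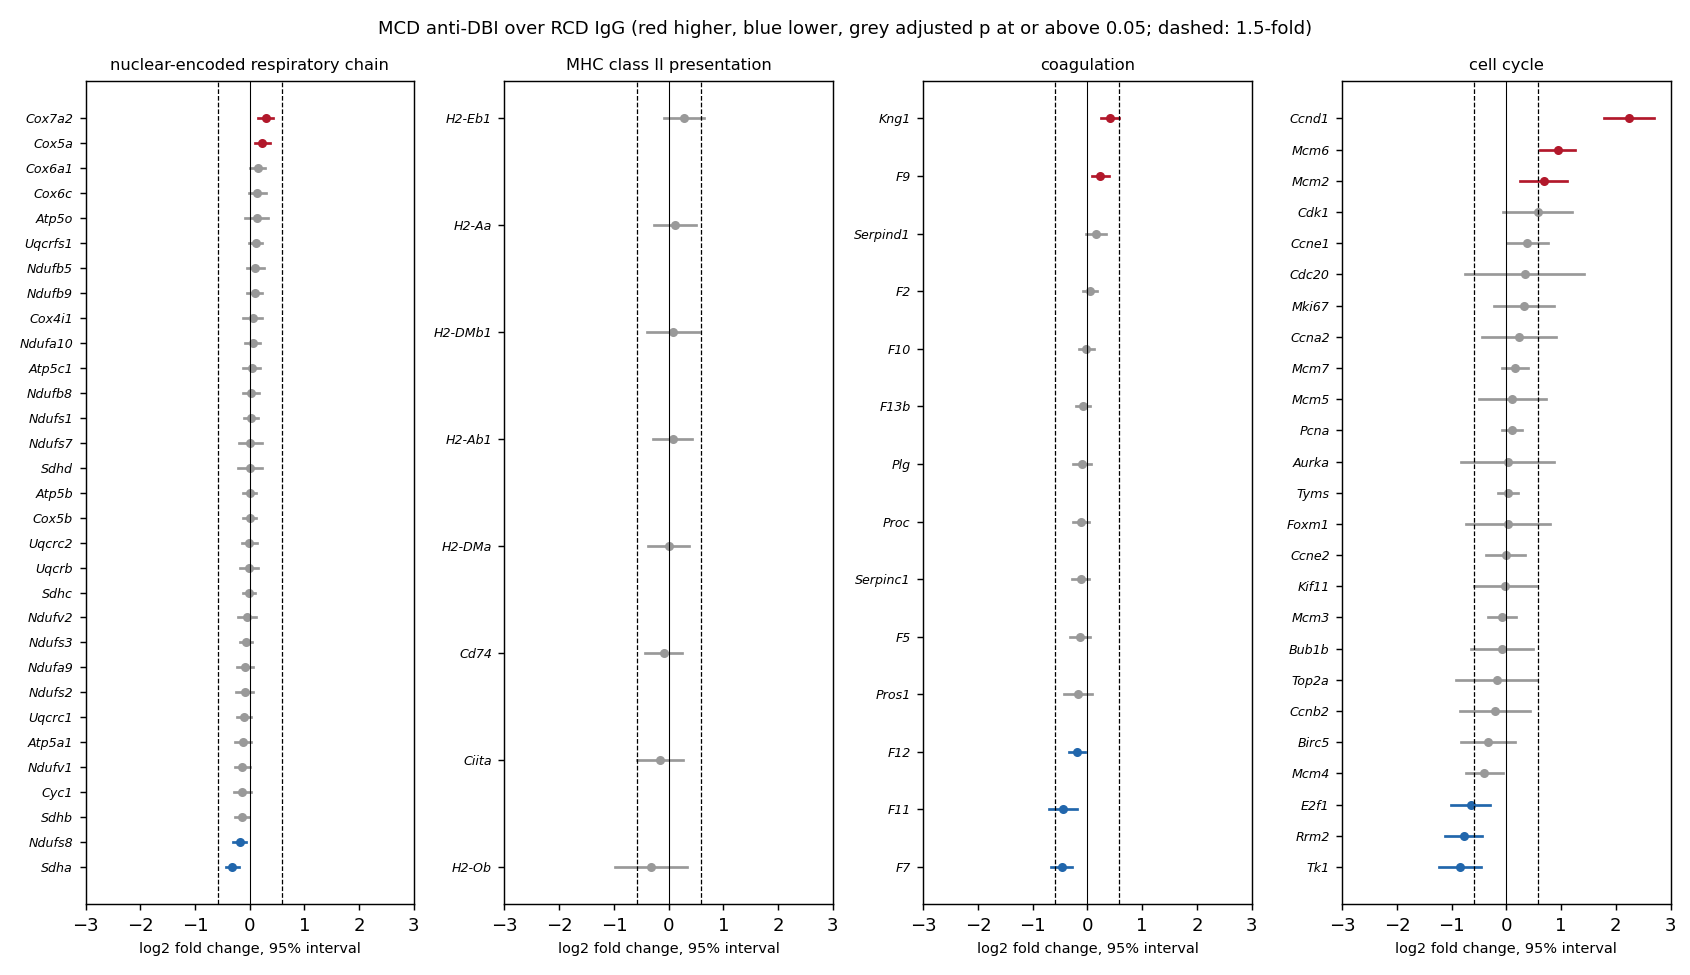
Points are log2 fold changes of MCD anti-DBI over RCD IgG and bars their 95% intervals, for the members of 4 lists, with dashed lines at 1.5-fold in either direction (red higher, blue lower, grey adjusted p at or above 0.05). All 31 respiratory chain bars stay between the dashed lines, 12 of 14 do for coagulation and 6 of 8 for MHC class II, while Ccnd1 (2.25) stands far outside in the cell cycle panel, where many bars are wide.

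Further lists had members on both sides (over all genes, 18.4% were higher, 18.1% lower and 53% within 1.5-fold). Of 18 chemokines and cytokines 6 were higher and 2 lower (3 and 1 among the 12 with at least 10 counts in every liver). Il1rn, the interleukin-1 receptor antagonist, had 2.07 to 9.06 CPM in MCD anti-DBI and 1.16 to 1.98 CPM in RCD IgG (2.14), and Ccl24, an eosinophil attractant, 0.118 to 1.3 and 1.51 to 2.45 CPM (-1.77). Of 12 immediate early genes 4 were higher and 2 lower (1 lower without any of 4 RCD IgG or 6 MCD anti-DBI livers), with Klf6, a transcription factor, up by 1.19 and Dusp1, a MAP kinase phosphatase, down by 1.40 on the log2 scale. Of 18 hepatocyte markers 13 had intervals within 1.5-fold, 7 were higher and 2 lower (4 lower without MCD anti-DBI 8), and Ahsg, fetuin-A, rose by 0.77. Among the cytosolic tRNA synthetases 16 of 20 were within 1.5-fold, 3 higher (5 without MCD anti-DBI 6) and 3 lower. Gars, for glycine, rose most (54.6 to 79.7 CPM in MCD anti-DBI, 37.8 to 45.8 CPM in RCD IgG, 0.68).

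The oxidative stress and clock lists were mixed. Of 18 NRF2 targets 5 were higher and 7 lower. Hmox1, heme oxygenase, had 24.2 to 44.4 CPM in MCD anti-DBI and 18.6 to 26 CPM in RCD IgG (0.81), and Srxn1, which repairs peroxiredoxins, 48.8 to 82 and 41.4 to 55.4 CPM (0.59). MCD IgG livers averaged 72.8 ± 26.3 and 191 ± 50.4 CPM. Aox1, aldehyde oxidase, fell by 1.43. Of 20 clock genes 5 were higher and 3 lower (5 lower without MCD anti-DBI 2 or 8), near the shares over all genes (18.4% and 18.1%). Nr1d1, the clock repressor REV-ERB alpha, was higher than in both IgG groups (107 to 229 CPM in MCD anti-DBI, a mean of 43.3 ± 24.2 CPM in MCD IgG and 88.9 to 130 CPM in RCD IgG), with log2 fold changes of 0.72 over RCD IgG and 1.97 over MCD IgG. In chow-fed livers with anti-DBI, Nr1d1 was 168 to 238 CPM, with every liver above all RCD IgG livers. The part of the antibody was not tested. The hour at which each liver was taken is not given in the sources used here, so its part was not tested.

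The 10 MCD anti-DBI livers did not lie at the same distance from chow. Over the 681 genes higher by at least 1 on the log2 scale, the median difference of a liver from the RCD IgG mean, on log2(CPM + 1), ran from 0.652 in liver 9 and 0.742 in liver 8 to 1.17 in liver 4. Over the 378 lower genes it ran from -0.989 in liver 8 to -1.34 in liver 6. The chow livers lay within -0.0628 and 0.079 for the higher and within -0.0607 and 0.064 for the lower genes. These genes were chosen by the same contrast, so the values describe the spread and test nothing. The processes did not share 1 order of livers. The mean difference over the lipid-associated macrophage list was lowest in liver 8 (1.21) and highest in liver 6 (3.63). That over the ATF4 list was lowest in liver 9 (0.414) and highest in liver 3 (1.86), and fatty acid synthesis was lowest in liver 6 (-2.44) and nearest to chow in liver 3 (-0.957). The male-biased list was lowest in liver 8 (-4.13) and nearest to chow in liver 4 (-2.69).

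**Figure D5:**
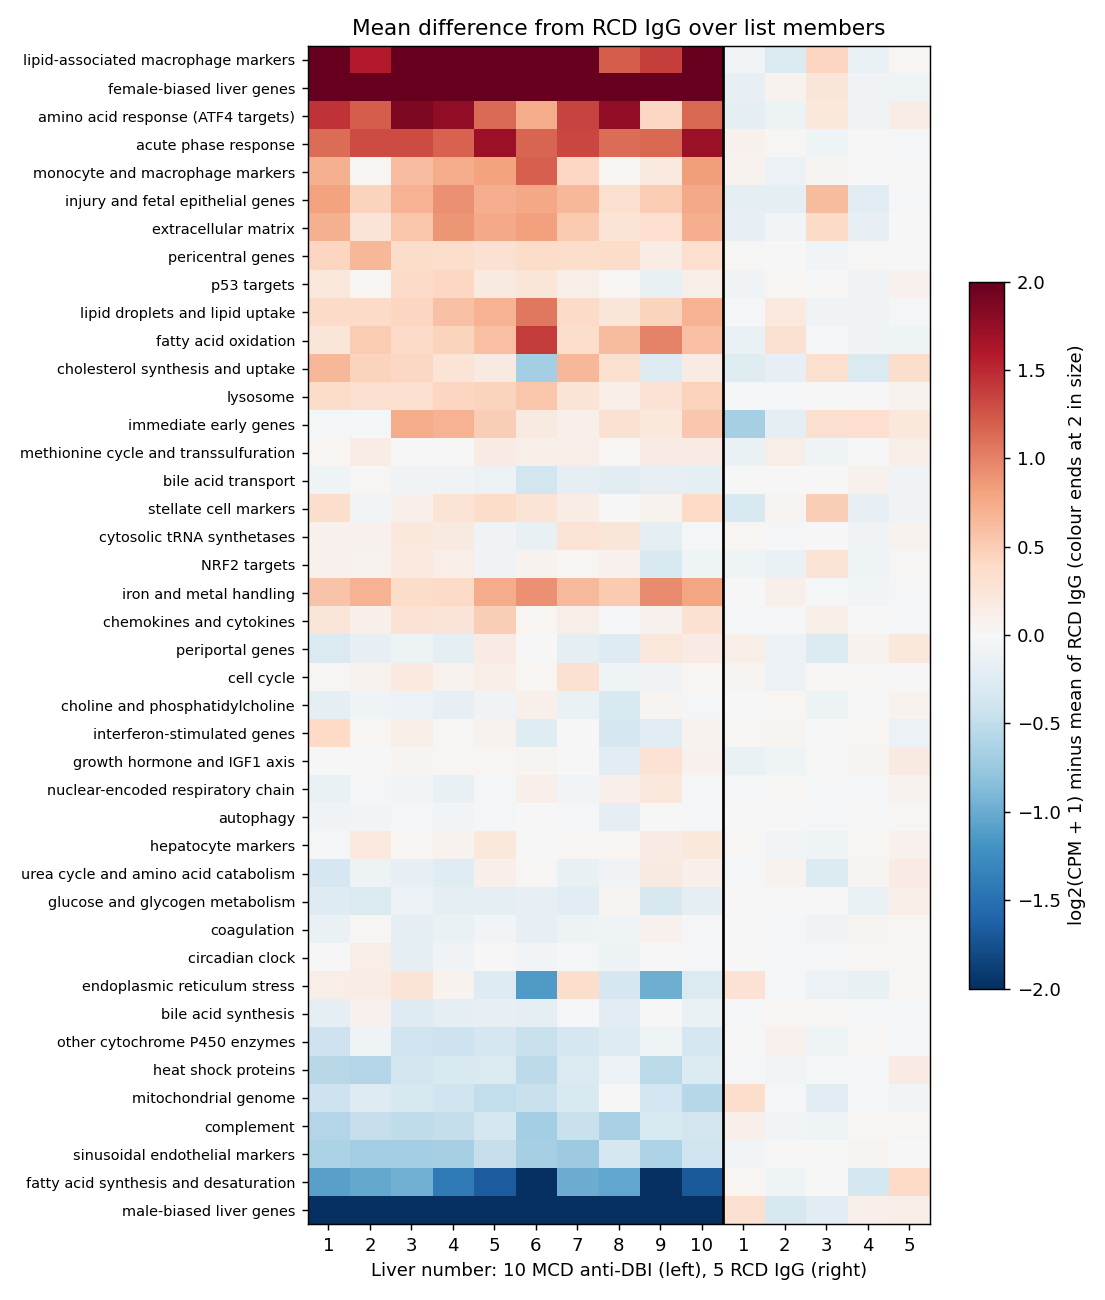
Rows are the lists with at least 10 tested genes in the order of their medians, and columns the 10 MCD anti-DBI livers (left of the black line) and the 5 RCD IgG livers (right), by their numbers. Colour is the mean over a list's genes of log2(CPM + 1) minus the RCD IgG mean, and it ends at 2 in size. The male-biased list is at or beyond that end in all MCD anti-DBI livers, while the ATF4 list ranges from 0.414 in liver 9 to 1.86 in liver 3.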

How the data were processed

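Gene counts of liver RNA were used as the authors deposited them, as raw counts per gene for 55487 genes and 30 livers. Per the file headers, reads were aligned with STAR to Ensembl GRCm38 and counted with featureCounts, whereas the published methods name HISAT2 and GRCm39. Tool versions and the strand setting are not given in the sources used here, so that overlapping and antisense genes and close paralogs remain uncertain. The deposited table also holds 30 columns of counts divided by size factors and the authors' own comparisons (fold changes and p-values from DESeq2), which were not used.

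The 15 livers of MCD anti-DBI (n = 10) and RCD IgG (n = 5) were fitted with edgeR 4.0.16 in R 4.3.3 (filterByExpr, TMM, quasi-likelihood F test, Benjamini-Hochberg over all tested genes, threshold 0.05). Limits on the log2 fold change were 1 and 1.5. The labels name the livers as separate samples, and nothing states that they came from separate experiments. Levels are CPM with TMM factors over all 30 libraries. Leaving out each liver, DESeq2 1.42.0, limma 3.58.1 on log2(CPM + 1), other scalings and filters, all 30 livers in 1 fit, thinned libraries and a replicate block were run as alternatives. The fit was tested on simulated counts. For each list, genes were named by smallest p, by direction against the rest and by narrow interval, and over all genes by smallest adjusted p and by size. Mup15, Vmn2r3 and some other genes that this rule gave are not reported here. The members of the 54 lists and the comparison were chosen with earlier results of these data known. Promoters were those of RefSeq (GRCm38.p6).

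Whether equal replicate numbers pair livers was checked by correlating the deviations from the group means. The correlations were between -0.0949 and 0.115, so the numbers were not taken to pair the livers.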

Additional observations from a re-analysis of the deposited data

Results flagged for a closer look

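Within each group of livers, the highest or the lowest liver was compared with the others on log2(CPM + 1). A liver was marked where its gap to the nearest other liver took a larger share of the group's range than Dixon's 95% critical value. Of 374 groups of values, 27 (7.22%) were marked, where chance marks about 1 in 20. The share of the range taken by the gap is given for each.

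Among the MCD anti-DBI livers, liver 6 was the highest for Cd36 (0.622) and Mmp14 (0.479) and the lowest for Acss2 (0.47), Fn1 (0.469) and the median over the 378 lower genes (0.513). Cd36 was 385 CPM in liver 6 and 165 to 227 CPM in the others, so the difference from RCD IgG did not rest on this liver. Liver 8 was the lowest for Ppara (0.612), Cdkn2c (0.573) and Atp6v0d2 (0.557) and the highest for Cyp2c68 (0.53). Ppara was 47.4 CPM in liver 8 and 90.9 to 137 CPM in the others. Liver 9 was the lowest for Asns (0.469) and the highest for Cyp27a1 (0.503), Aldh7a1 (0.492) and Cth (0.488). Liver 2 was the highest for Fitm1 (0.554) and Igfals (0.467).

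Among the RCD IgG livers, liver 2 was the highest for Cyp2b13 (1), where it held the only count of the group, for Cyp2b9 (0.747) and for Il1rn (0.721), and the lowest for Cyp39a1 (0.754). Liver 3 was the highest for Krt19 (0.813), at 14.4 CPM against 0.376 to 1.16 CPM in the other chow livers, and the lowest for Lamp1 (0.797) and Otc (0.777). Liver 1 was the highest for mt-Co3 (0.845) and Adgre1 (0.808). Liver 5 was the highest for G6pc (0.777) and Fads1 (0.739), and liver 4 the lowest for Bcl6 (0.78).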

How the results depend on the processing

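The number of called genes stayed within 1.5 times of 5084 under every alternative that was run. DESeq2 called 2690 genes higher and 2611 lower, upper-quartile scaling 2817 and 2317, and limma on log2(CPM + 1) 2611 and 2601. Leaving out 1 RCD IgG liver gave 2146 to 2391 higher and 2231 to 2391 lower genes, and leaving out 1 MCD anti-DBI liver 2365 to 2704 higher and 2390 to 2840 lower, the most without liver 8. The counts past a limit on size moved more. Without a filter on low counts, 899 genes passed the limit of 1.5 (554 higher, 345 lower). With at least 10 counts in every liver, which leaves 11463 genes, 506 passed the limit of 1 (289 higher, 217 lower) and 193 that of 1.5 (118 higher, 75 lower). On log2(CPM + 1) with limma, which understates the change of scarce mRNAs, 571 passed the limit of 1 (328 higher, 243 lower) and 229 that of 1.5 (128 higher, 101 lower). Krt19 turned its sign without RCD IgG replicate 3 (0.82, adjusted p = 0.0359), and it was called lower without RCD IgG replicate 2, 4 or 5 (-1.71 to -1.67). With the replicate number as a block, 2755 genes were called higher and 2739 lower, of which 4398 were shared with the fit without the block. Under the block 21 of 108 list counts moved by over 1.5 times. The replicate numbers 6 to 10 occur only in MCD anti-DBI, so those livers did not inform the fold changes under the block. The part of this in the moves was not tested. With the pair of alike MCD anti-DBI libraries summed, 105 list counts stayed within 1.5 times and 3 moved, each from a count of 1 or 2 genes. The group of 5 chow livers limits the precision for scarce mRNAs, such as those of lymphocytes, neutrophils and dividing cells.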
